A study of Homo sapiens with 8 samples.

Results

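The miRNAs described here were 6 mature miRNAs cut from 4 hairpins that lie in introns of protein-coding genes, out of 945 miRNAs listed in the deposited tables of a small RNA sequencing study of H1299 lung cancer cells. They were hsa-miR-139-5p, hsa-miR-140-5p, hsa-miR-140-3p, hsa-miR-582-5p, hsa-miR-582-3p and hsa-miR-592. They were chosen by name because untreated cells with the R273H mutant of p53 held more of them than control cells, so their levels in untreated cells chose them and are given as a description without a test. The data went against that label for 2 of the 6. The level of miR-140-3p was lower in untreated R273H cells, and miR-582-3p had at most 2 reads in any library.

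H1299 is a p53 null non-small cell lung carcinoma line derived from a lymph node. The control cells (H1299/EV) carried an empty vector and came from another laboratory, whereas the R273H cells (H1299/mutant p53 R273H) were transfected with a CMV-driven R273H p53 cDNA and grown from picked colonies that resisted G418, so p53 status cannot be told apart from the history of each line. Both lines were sequenced untreated and after 24 h of etoposide, a topoisomerase II inhibitor that causes DNA breaks, with 2 libraries in each of 4 groups. The labels give the etoposide dose as 10 µM in one field and 10 mM in another. Small RNA reads cannot show the p53 transcript, so the genotype was not checked in these data. The study itself shows the mutant protein in the R273H cells by immunoblot. It also reports that profiling of short tandem repeats found both lines to be isogenic. The study calls the replicates biological, but neither the labels nor its methods say that they came from separate cultures, and p-values measure the spread between these libraries, which may be partly technical.

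An intronic miRNA is usually transcribed together with its host gene and cut from the intron as a hairpin, and the hairpin is then cleaved into a 5p and a 3p strand. One strand is mostly kept and loaded into an Argonaute protein, where bases 2 to 8, the seed, pair with target mRNAs. The hosts here are PDE2A, a phosphodiesterase that degrades cAMP and cGMP, PDE4D, a phosphodiesterase specific for cAMP, WWP2, an E3 ubiquitin ligase, and GRM8, a metabotropic glutamate receptor.

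The mature sequences are shown because reads were assigned by them and because the seeds of a pair of members overlap. They are RefSeq sequences, written 5′ to 3′ with the seed in capitals.
hsa-miR-139-5p: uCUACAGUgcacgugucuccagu
hsa-miR-582-5p: uUACAGUUguucaaccaguuacu
hsa-miR-592: uUGUGUCAauaugcgaugaugu
hsa-miR-140-5p: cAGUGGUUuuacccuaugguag
hsa-miR-140-3p: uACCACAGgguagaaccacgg
hsa-miR-582-3p: uAACUGGUugaacaacugaacc

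None of the 6 seeds was shared in full with any other of the 825 listed miRNAs that had a RefSeq mature sequence (0 for each seed). The letters UACAGU ran from base 3 of miR-139-5p and from base 2 of miR-582-5p, and these were the only 2 of the 825 miRNAs (0.242%) with those letters inside the seed. This is a description of the sequences, and no target was measured.

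In GRCh37, the MIR139 hairpin lies at chr11:72326107-72326174 on the minus strand, in intron 2 of the 30 introns of the canonical PDE2A transcript. The MIR140 hairpin lies at chr16:69966984-69967083 on the plus strand, in intron 16 of 23 of WWP2. That intron is 2079 bases long. The MIR582 hairpin lies at chr5:58999432-58999529 on the minus strand, in intron 1 of 14 of PDE4D, which spans 677200 bases. The MIR592 hairpin lies at chr7:126698142-126698238 on the minus strand, in intron 3 of 10 of GRM8. Each hairpin has the strand of its host, and the 4 genes are on 4 different chromosomes. Of the annotated protein-coding transcripts, 8 of 14 of PDE2A and 3 of 6 of WWP2 held the hairpin in an intron. The same was true of 4 of 14 of PDE4D and 6 of 8 of GRM8. Levels of the host transcripts were not measured.

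Each library held 234545 to 579367 reads over all listed features, of which 213007 to 536991 were miRNA reads, and miR-21-5p alone took 30.6 to 44.5% of the miRNA reads. Spearman's rho between replicates was 0.941 to 0.973 within groups and 0.850 to 0.899 between lines, over miRNAs within these libraries. At this depth the members other than miR-140-3p had 0 to 34 reads in a library, so their levels carry a large counting error. Levels below are in RPM (reads per 1000000 miRNA reads), with the mean ± SD of 2 libraries.

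Markers of other cell types that the samples could hold were listed for 13 of 17 miRNAs. Their summed level was 40.0 to 70.8 RPM in untreated EV, 41.4 to 169 in treated EV, 46.5 to 140 in untreated R273H and 45.4 to 51.6 in treated R273H libraries, within the range of several members or above it. The summed level overlapped between the lines. Muscle markers were at 0 and 49.2 RPM in the untreated R273H libraries against at most 1.86 in untreated EV libraries. Epithelial markers were at 0 in both treated EV libraries against 3.95 to 14.3 RPM in treated R273H libraries. In the other direction, the neural marker was at 5.52 to 14.1 RPM in treated EV libraries and 0 in both treated R273H libraries. Leukocyte markers were at 2.76 to 14.1 RPM in treated EV libraries against 0 to 1.97 in treated R273H libraries. A level of 3 reads, used below as the limit of detection, was 5.59 to 14.1 RPM in a library. These neural, leukocyte and epithelial levels were therefore at or near that limit. Erythroid markers, at 23.7 to 103 RPM, and the hepatocyte marker, at 0 to 32.9 RPM over all libraries, overlapped between the lines. The part of all these markers in the members' values was not tested.

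In untreated cells, 4 of the 6 members were higher in both R273H libraries than in both EV libraries, 1 was lower in both, and 1 overlapped. These counts only describe the choice of the members. Of all 304 miRNAs that passed the filter on low values in this comparison, 34.9% were higher in both R273H libraries on the deposited normalized scale and 30.3% in RPM. The shares that were lower in both were 26.6% and 27.6%. At an adjusted p under 0.05, 10.9% of the 304 were higher.

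Reads of miR-139-5p, the PDE2A miRNA, numbered 0 and 1 in the untreated EV libraries and 16 and 20 in the untreated R273H libraries. The libraries of the lines did not overlap, and the level in R273H cells was 42.3 ± 9.73 RPM (SD, n = 2). The ratio of summed reads per miRNA read was 33.0, with an exact 95% interval of 5.56 to 1339 that covers counting error only. A single read in EV cells stands behind this ratio.

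For miR-582-5p, from PDE4D, both untreated EV libraries had 0 reads, and the R273H libraries had 20 and 15. The R273H level was 40.6 ± 5.22 RPM (SD, n = 2), at least 4.61-fold higher than the level that 3 reads in each EV library would give. Reads of miR-592, from GRM8, were also at 0 in both EV libraries and at 7 in each R273H library. Its R273H level of 16.4 ± 1.21 RPM (SD, n = 2) was at least 1.86-fold above the same limit.

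The 2 arms of miR-140, from WWP2, differed from each other. The untreated EV libraries had 6 and 2 reads of miR-140-5p and the R273H libraries 21 and 20, or 9.59 ± 2.24 against 47.8 ± 1.91 RPM (SD, n = 2 each), a ratio of summed reads of 4.70 (exact 95% interval 2.17 to 11.6). The untreated EV libraries had 495 and 151 reads of miR-140-3p and the R273H libraries 220 and 225. In RPM both R273H libraries were lower than both EV libraries, at 520 ± 46.9 against 763 ± 224 RPM (SD, n = 2 each), and the ratio was 0.631 (0.558 to 0.713). The intervals of both arms cover counting error only. They leave out the spread between libraries, which for miR-140-3p in EV cells was 922 and 604 RPM. From the 3p strand of the PDE4D hairpin, miR-582-3p had 2 reads in 1 untreated R273H library and 0 in the other 3 untreated libraries. That is below the 3 reads used as the limit of detection.

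**Figure D1:**
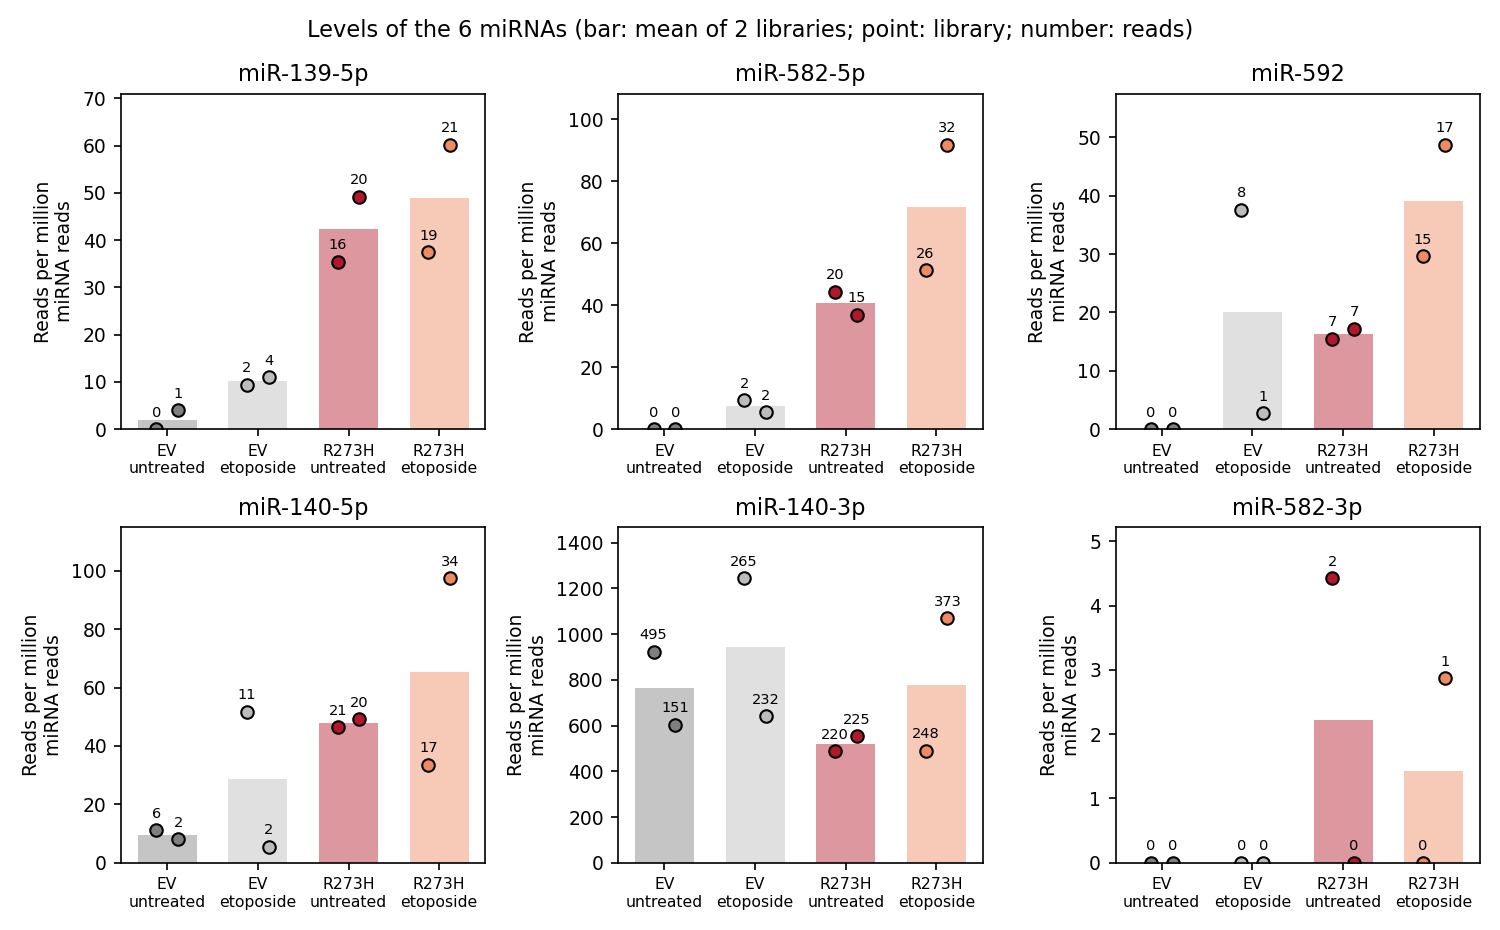
Each panel shows 1 miRNA in RPM, with bars for the mean of 2 libraries, points for the libraries and the number of reads beside each point. The untreated EV libraries had 0 or 1 read of miR-139-5p, miR-582-5p and miR-592, and EV replicate 1 under etoposide had 11 reads of miR-140-5p and 8 of miR-592.

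Of 945 miRNAs, 3 had at most 3 reads in each untreated EV library and at least 10 in each untreated R273H library. They were miR-139-5p, miR-582-5p and miR-103a-2-5p, which is no member. The other direction held for 2 miRNAs, miR-3192-3p and miR-708-5p. Under etoposide the same thresholds gave 8 miRNAs near absent in EV cells, among them miR-582-5p but not miR-139-5p, and 3 in the other direction. These thresholds were chosen after the values were seen. The untreated values of miR-139-5p and miR-582-5p also chose them as members, so finding them by these thresholds in untreated cells is no separate result.

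The members were chosen by their levels in untreated cells, but with earlier results of these data known. The treated libraries come from the same lines, so the comparison of R273H with EV cells under etoposide is no independent test. It asked whether the lines also differed there. Of the 5 members tested 1 passed the adjusted threshold, miR-582-5p, which was higher in R273H cells. It entered the test through the R273H libraries alone. Of the others, miR-139-5p was higher in both R273H libraries without passing the adjusted threshold, and miR-140-5p, miR-592 and miR-140-3p had libraries that overlapped between the lines. Among all 337 miRNAs tested with edgeR's quasi-likelihood test, 19.6% had a Benjamini-Hochberg adjusted p under 0.05, with 7.12% called higher and 12.5% lower. That split depends on the scaling, since 24 of 66 calls were higher here and 48 of 71 with equal upper quartiles.

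The EV libraries under etoposide had 2 reads each of miR-582-5p, and the R273H libraries 26 and 32. The level was 7.46 ± 2.74 RPM in EV cells and 71.5 ± 28.6 in R273H cells (SD, n = 2 each). The edgeR log2 fold change was 2.87 (SE 0.79) with an adjusted p of 0.00432, and it ranked 8 from the highest of 337. Each EV library was under the limit of 3 reads, so the size and rank of this fold are uncertain, and the miRNA passed the filter on low counts through the R273H libraries alone. The direction held in every alternative run, but the call was lost without EV replicate 1 (edgeR adjusted p 0.0583), without R273H replicate 1 (0.222) and without R273H replicate 2 (0.199). It was also lost when libraries were scaled to total miRNA reads alone (0.0937), in limma on log2 RPM (0.0758) and with the replicate block (0.0853).

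Reads of miR-139-5p under etoposide were 2 and 4 in the EV libraries against 19 and 21 for R273H. The EV libraries lay just below and just above the limit of 3 reads. The groups did not overlap, at 10.2 ± 1.17 against 48.8 ± 16.0 RPM (SD, n = 2 each). With edgeR the log2 fold change was 1.78 (SE 0.78), with an unadjusted p of 0.0231 and an adjusted p of 0.0900, which missed the threshold. An unadjusted p under 0.05 was reached by 30.6% of all miRNAs tested. The edgeR adjusted p was under 0.05 in 3 of 14 alternatives. They were no filter on low counts (0.0443), equal upper quartiles (0.0265) and a crossed replicate block chosen after seeing the data (0.0489). The other alternatives missed the threshold, and the log2 fold change lay between 1.38 and 2.32 over all 14. In RPM, 2 of the 6 members were higher in both R273H libraries under etoposide, beside 32.3% of all 337 miRNAs tested, and none was lower in both, beside 13.6%. The members' share is close to that of all miRNAs.

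For miR-140-5p and miR-592, a single EV library decided the value. EV replicate 1 had 11 reads of miR-140-5p, against 2 in EV replicate 2 and 17 and 34 in the R273H libraries. The edgeR log2 fold change was 1.01 (SE 0.64, adjusted p 0.278), 2.70 without EV replicate 1 (adjusted p 0.106) and 0.25 without EV replicate 2 (adjusted p 0.827). The same library had 8 reads of miR-592, against 1 in EV replicate 2 and 15 and 17 in R273H cells.

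For miR-592 the edgeR log2 fold change was 0.88 (SE 0.75, adjusted p 0.471), 2.98 without EV replicate 1 (adjusted p 0.0815) and 0.04 without EV replicate 2 (adjusted p 0.980). Neither miRNA was called in any of these fits. EV replicate 1 was the shallowest library of the series, with 213007 miRNA reads. It also had the highest summed level of the markers of other cell types, at 169 RPM. It had 1 read of miR-103a-2-5p, which had 10 in each R273H library under etoposide. The part of depth or of other cells in these values was not tested.

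The more abundant arm, miR-140-3p, numbered 265 and 232 reads in the treated EV libraries, compared with 248 and 373 in the treated R273H libraries. Its log2 fold change was -0.62 (SE 0.32, edgeR adjusted p 0.172), against a median of 0.04 over all 337 miRNAs. The adjusted p was under 0.05 in 1 of 14 alternatives, the crossed replicate block (0.0169), and the direction was lower in all 14. Scaling to total miRNA reads moved that median to 0.34, so the size of each member's change is relative to the scaling chosen. The other strand, miR-582-3p, had 0 reads in both EV libraries and 0 and 1 in the R273H libraries and was not tested.

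**Figure D2:**
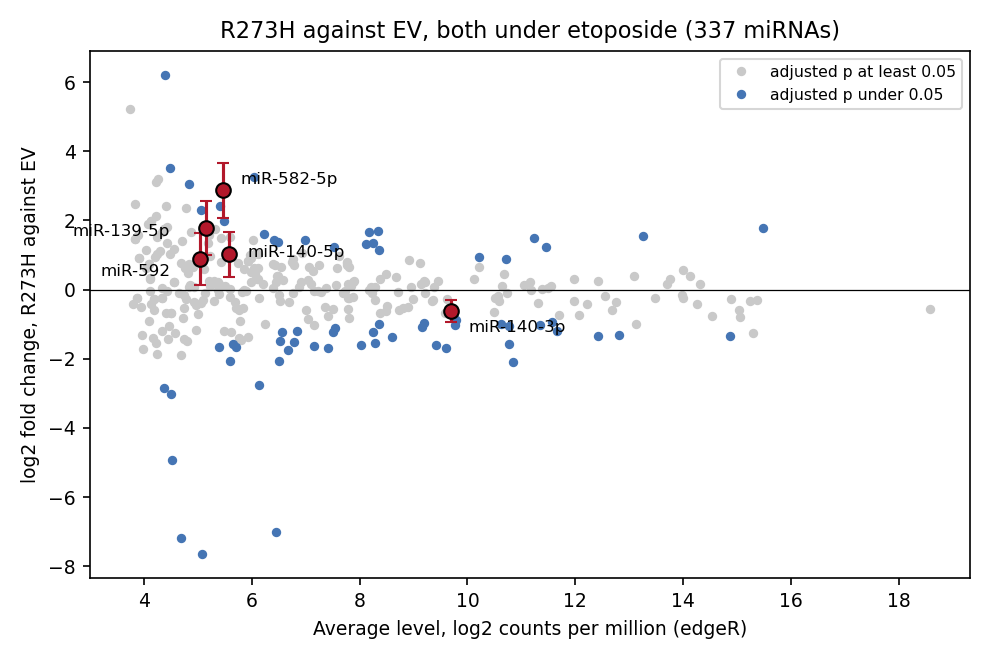
Each point is 1 of 337 miRNAs, with the average level in log2 CPM, edgeR's scaled counts, on the x axis and the log2 fold change of R273H against EV cells under etoposide on the y axis. Blue points had an edgeR adjusted p under 0.05, and red points with SE bars are the 5 members tested, of which miR-582-5p (2.87) was called. This miRNA had 2 reads in each EV library and passed the filter on low counts through the R273H libraries alone.

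The split of miR-140 reads between its arms was not used to choose the members by itself, although both arms were read in the untreated libraries that were. Because both arms come from 1 hairpin and 1 library, the share does not depend on how libraries are scaled. The 5p arm took a small part of the reads in every library, 113 of 2322 in all. In untreated EV cells its share was 1.20% (exact 95% binomial interval 0.441 to 2.59) and 1.31% (0.159 to 4.64). In untreated R273H cells it was 8.71% (5.47 to 13.0) and 8.16% (5.06 to 12.3), and neither interval met those of the EV libraries.

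Under etoposide the 5p share was 3.99% (2.01 to 7.02) and 0.855% (0.104 to 3.05) in EV cells. It was 6.42% (3.78 to 10.1) and 8.35% (5.85 to 11.5) in R273H cells. The points of the lines did not overlap, but the interval of EV replicate 1 overlapped both R273H intervals. The smallest p of an exact permutation test is 0.333 with groups of this size, and none was run.

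**Figure D3:**
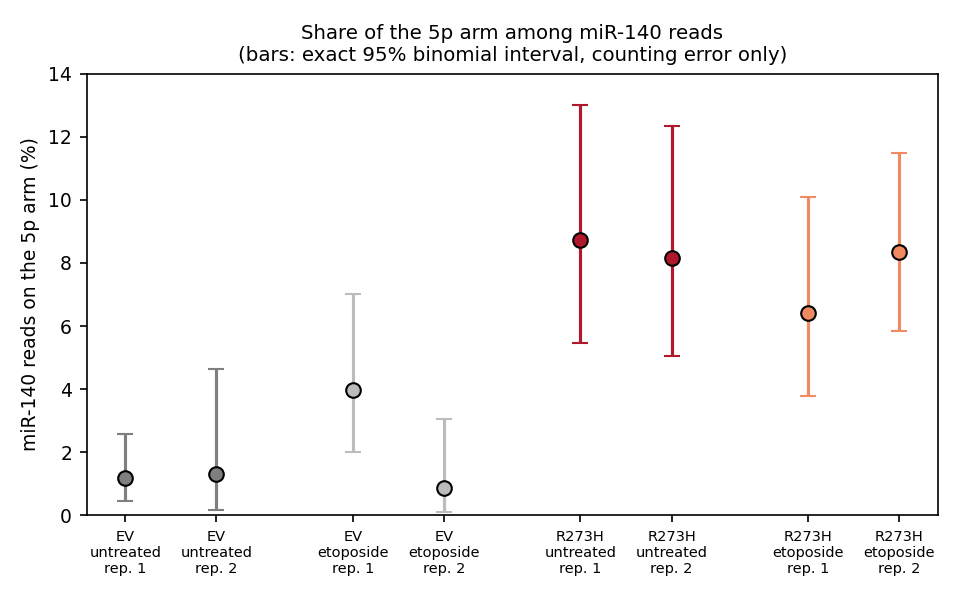
Points are the percent of miR-140 reads that fell on the 5p arm in each library, with exact 95% binomial intervals for counting error only. The R273H libraries lie between 6.42 and 8.71% and the EV libraries between 0.855 and 3.99%.

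The same split was then described for all hairpins with at least 20 reads over both arms in each library of a comparison. The mean log2 ratio of 5p to 3p reads of miR-140, computed with 0.5 added to each arm, was higher in R273H than in EV cells by 2.68 when untreated. That was the highest of 91 hairpins, whose median absolute difference was 0.710, and 26.4% of the hairpins were higher in both R273H libraries. Under etoposide the difference of miR-140 was 1.90. Only miR-301a (3.42) and miR-10b (2.43) were higher among 94 hairpins, of which 22.3% were higher in both R273H libraries, and the median absolute difference was 0.536. In absolute size 8 hairpins, miR-140 among them, reached that value. The untreated order includes the values that chose miR-140-5p. Because the filter counts both arms together, the smaller arm can have few reads. In the treated EV libraries miR-140-5p had 11 and 2 reads and miR-301a-5p had 5 and 0. Places in these orders therefore carry a large counting error.

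**Figure D4:**
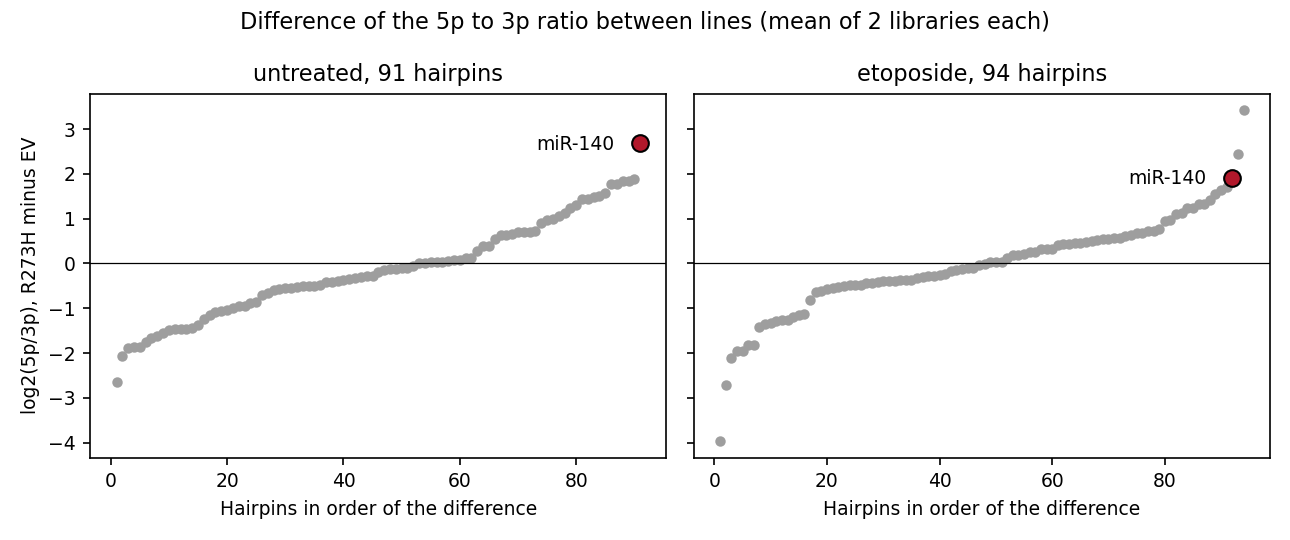
Each point is 1 hairpin, in order of the difference between R273H and EV cells in the mean log2 ratio of 5p to 3p reads. In the left panel of untreated cells miR-140 stands highest of 91 hairpins at 2.68, and under etoposide, on the right, it is the third highest of 94 at 1.90. The order on the left includes the values that chose miR-140-5p.

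The other hairpins gave reads almost wholly from 1 arm. Of 84 miR-139 reads in the 8 libraries 83 were miR-139-5p, and of 100 miR-582 reads 97 were miR-582-5p.

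The next comparison asked how etoposide changed the members within R273H cells. Here the deposited normalized counts of 1 table were compared, and the untreated libraries were among those that chose the members. No member passed limma's adjusted threshold, and neither did any of the 341 miRNAs tested (0%), of which 31 (9.09%) had an unadjusted p under 0.05. Over all miRNAs edgeR called 0 and DESeq2 1. The normalized counts of miR-139-5p were 21.3 and 23.6 untreated and 15.7 and 15.6 under etoposide, lower in both treated libraries, with a limma log2 fold change of -0.49 (SE 0.35, adjusted p 0.635). In RPM the same libraries overlapped.

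For miR-592 the normalized counts were 9.31 and 8.27 untreated and 12.4 and 12.6 under etoposide, higher in both treated libraries on either scale (log2 fold change 0.47, SE 0.41, limma adjusted p 0.738). The counts of miR-582-5p were 26.6 and 17.7 untreated and 21.4 and 23.8 treated, a log2 fold change of 0.05 (SE 0.35, limma adjusted p 0.983) whose sign changed with the scaling. In RPM both treated libraries were higher. On the normalized scale 1 of 6 members was higher and 1 lower in both treated libraries, beside 20.5% and 18.8% of all miRNAs, whereas in RPM 2 were higher, beside 52.8% of all miRNAs.

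The arms of miR-140 overlapped between treated and untreated R273H cells on both scales. The log2 fold changes were -0.43 (SE 0.37, limma adjusted p 0.736) for miR-140-5p and -0.23 (SE 0.32, limma adjusted p 0.918) for miR-140-3p.

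In EV cells, only the arms of miR-140 had enough reads to be tested against etoposide. The limma log2 fold change was 0.40 for miR-140-5p (SE 0.80, adjusted p 0.993) and -0.17 for miR-140-3p (SE 0.35, adjusted p 0.993). Of 296 miRNAs tested, 0.676% were called. Reads of miR-139-5p went from 0 and 1 to 2 and 4, those of miR-582-5p from 0 in both libraries to 2 in each, and those of miR-592 from 0 in both to 8 and 1.

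These 3 miRNAs were not among the 296 tested. The untreated EV counts of 0 or 1 chose them, so any read after treatment puts them higher, and no response is read from these counts. Of the 9 reads of miR-592 under etoposide, 8 came from EV replicate 1. EV replicate 2 had 1 read, under the limit of 3 reads.

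The difference of the etoposide responses between the lines was tested with edgeR over all 8 libraries. No member and none of 334 miRNAs had an adjusted p under 0.05 (0%, also 0 with DESeq2), and 12 (3.59%) had an unadjusted p under 0.05. Among those 12 were miR-592 (unadjusted p 0.0140, edgeR adjusted p 0.818), miR-582-5p (0.0358, adjusted p 1.00) and miR-139-5p (0.0446, adjusted p 1.00), each with a negative interaction. The untreated libraries, with 0 or 1 read of each in EV cells, entered both this test and the choice of the members, which favours that sign, so these p-values are not evidence of a difference. The unadjusted p was 0.225 for miR-140-5p and 0.968 for miR-140-3p.

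Across the 8 libraries, log2(RPM + 1) of miR-139-5p and miR-582-5p had a Pearson r of 0.94, and that of miR-582-5p and miR-592 an r of 0.91. The arms of miR-140 had an r of 0.22. These 8 points share 2 lines and their libraries, so miRNAs that differ between the lines tend to correlate, and the values are a description.

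Among 233 miRNAs with a mean of at least 10 reads, the one most like miR-139-5p was miR-20a-3p (r = 0.94), followed by miR-19a-3p (0.89), both from the miR-17-92 cluster. The most like miR-140-5p were miR-132-3p (0.95) and miR-652-5p (0.94). The most like miR-582-5p were miR-181a-2-3p (0.95) and miR-16-5p (0.93). For miR-140-3p they were miR-589-3p (0.93) and miR-296-3p (0.92), whereas miR-592 and miR-582-3p had too few reads for such an order. Each r was over the same 8 libraries.

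Of 632 listed miRNAs that could be placed in the annotation, 365 lay in introns of protein-coding genes. Under etoposide, 141 of them were tested, 9 were higher and 16 lower in R273H cells (17.7% called), with a median log2 fold change of 0.09 against 0.04 for all 337. Among intronic miRNAs called higher, miR-582-5p had the second largest fitted change after miR-942-5p from TTF2, whose EV libraries held 2 and 0 reads and whose R273H libraries held 12 and 22 (edgeR adjusted p 0.0212). The next was miR-301a-5p from SKA2, with 5 and 0 against 26 and 27 reads (edgeR adjusted p 0.0137). Each of these miRNAs had few EV reads and passed the filter on low counts through its R273H libraries. The sizes and order of these changes are therefore uncertain.

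Of the 3 intronic miRNAs with the lowest fitted change, 2 were near absent from R273H cells. Reads of miR-708-5p, from TENM4, were 60 and 29 in the EV libraries against 0 and 1 in the R273H libraries, and those of miR-3192-3p, from POLR3F, 20 and 14 against 0 in both. For miR-657, from AATK, which stayed above the limit of detection, reads were 12 and 50 against 10 and 7 (log2 fold change -2.76, SE 0.55, edgeR adjusted p 4.27e-05). Intronic miRNAs as a list were thus called in both directions, at a share close to that of all miRNAs.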

How the data were processed

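Small RNA of 8 libraries was sequenced on an Ion PGM. The authors kept reads of 17 to 35 bases, aligned them to miRBase 20 with SHRiMP, counted reads per feature and normalized with DESeq. The deposited values are a signal, read counts divided by a size factor per library, separately in each of 3 tables. Every value was a whole multiple of 1 step per library (100%, tolerance 0.05 reads), so reads were recovered, and a feature not listed was taken as 0 reads. Treated libraries of both lines share no table and were tested on these reads with edgeR 4.0.16 (TMM, mean of at least 3 reads). Comparisons within a table used limma 3.58.1 with trend on log2(value + 1), mean of at least 3, which understates the fold change of a miRNA with few reads. DESeq2 1.42.0 was an alternative. Adjusted p-values are Benjamini-Hochberg over all miRNAs tested, and the tests were tried on simulated data. Deposited columns of the authors' own fold changes and p-values were not used.

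The members and lists were chosen with earlier results of these data known. All members, their other arms and miRNAs by likeness or intronic position were named by rule. Within a table, overlap of libraries was first counted in RPM, and the deposited normalized scale was added after the values were seen. Both are given. The arm comparison over all hairpins and the counts of near-absent miRNAs were also chosen after the values were seen. Positions are from GENCODE 44 on GRCh37. Intervals and the limit of 3 reads per library cover counting error only, since reads carried no molecular identifiers.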

Additional observations from a re-analysis of the deposited data

Results flagged for a closer look

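In edgeR's test of the difference between the etoposide responses of the lines, over 8 libraries, 3 members had an unadjusted p under 0.05, and none passed the adjustment over 334 miRNAs. In edgeR they were miR-592 with an unadjusted p of 0.0140 (adjusted p 0.818), miR-582-5p with 0.0358 (adjusted p 1.00) and miR-139-5p with 0.0446 (adjusted p 1.00). The reads behind them are 0 or 1 in the untreated EV libraries, which also chose the members, and 1 to 8 in the treated EV libraries. Choosing members that are near 0 in untreated EV cells favours a negative interaction, so these values do not show that the responses differed.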

How the results depend on the processing

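With 2 libraries per group and under 40 reads for most members, these counts are limited by depth and by each library. Where 1 library was left alone in a group, it was assumed to vary like the others. Under etoposide, the 66 miRNAs called between the lines became 31 with DESeq2, 18 with limma on log2 RPM, 14 with total miRNA reads only, 12 with the replicate block and 4 to 39 when 1 library was left out (4 without R273H replicate 1). Same-numbered libraries correlated at -0.147 in their deviations there, and a crossed pairing, chosen after seeing the data, gave 102. With equal upper quartiles 48 of 71 calls were higher, against 24 of 66. In the other comparisons that correlation was -0.041 to 0.0077, so the numbers were not taken as pairs. For etoposide in R273H cells the count of 0 became 2 with a mean of at least 10, 1 with DESeq2 and 0 to 9 leaving out a library (9 without R273H replicate 1 under etoposide). In EV cells the 2 calls became 1 without the trend, with edgeR and with DESeq2, and 0 to 1 leaving out a library. For the interaction the count of 0 became 0 to 1. Between the untreated lines the 62 calls became 39 without the trend, 34 with DESeq2, 0 with the replicate block and 0 to 51 leaving out a library (0 without either R273H replicate). With edgeR 21 of 57 were higher, against 33 of 62.

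The sign changed for 3 members in these fits. Under etoposide in R273H cells miR-582-5p went from 0.05 to -0.059 with equal upper quartiles, and to between -0.23 and 0.33 leaving out a library (-0.23 and -0.018 without untreated and treated replicate 2). In EV cells miR-140-3p lay between -0.41 and 0.071 (0.071 without untreated replicate 1). In the interaction, miR-140-5p, at -1.14, lay between -1.91 and 0.43 (0.43 without EV replicate 1 under etoposide), and miR-140-3p went from 0.019 to -0.013 with DESeq2 and to between -0.28 and 0.31 leaving out a library (-0.28, -0.11, -0.025 and -0.23 where it was below 0). The cause was not tested.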
